A study of Mus musculus with 4 samples.

Results

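The cell cycle genes described here are 40 of the 32285 genes counted in sorted myeloid cells of mouse ankle synovium, the lining tissue of the joint, taken at 4 stages of serum-transfer arthritis. They were taken as a fixed list of gene names, chosen with earlier results of these data known. By textbook function 25 act in mitosis, 14 act in DNA replication, and Stmn1, which destabilises microtubules, was kept out of both sets. All 40 were detected in every library, with 86791 UMIs (unique molecular identifiers, each standing for 1 captured RNA molecule) in 14451 cell barcodes.

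RNA and surface proteins were read in the same cells by CITE-seq, in which each antibody carries a short DNA tag. All mice were bone marrow chimeras of genotype CD45.1 B6 into CD45.2 B6 whose ankles were shielded from irradiation, so that CD45.1 marks donor marrow and CD45.2 marks the host. Baseline mice, taken on day 0, had no treatment. The other mice had STIA, arthritis brought on by serum of K/BxN mice, which holds autoantibodies. Peak was sampled on day 7, Plateau on day 14 and Resolution on day 56. Each stage is 1 library, made with 3′ 10x chemistry from live CD45+ CD11b+ cells that lacked Ly6G, SiglecF, CD64, MHCII, Ly6c and CD177. How many mice went into a library, and their age, was not stated in the labels. The 3 arthritis samples have Clo-lip in their titles, with no explanation, and Baseline does not, so what it marks and the arthritis cannot be told apart. With 1 library per stage no difference between stages could be tested, and every interval given for a share or a level covers counting error only, at 95%.

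A cell that divides first copies its DNA and then separates the copies. The Mcm proteins form the helicase that opens the double strand, Pcna clamps the polymerases to it, and ribonucleotide reductase (Rrm1 and Rrm2) supplies the nucleotides. Cyclins with their kinases then drive entry into mitosis, spindle and centromere proteins move the chromosomes, and Cdc20 and Ube2c mark the cyclins for destruction. Most blood monocytes are out of cycle, whereas marrow precursors and some resident macrophages of tissues divide. Osteoclasts, the cells that resorb bone, form by fusion of precursors and do not divide once fused.

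The promoters of 4 members are shown because the mitotic and replication sets differed in the motifs marked in them. A link between these motifs and the RNA of the members in these cells was not tested. Each runs 250 bases before to 50 bases after the annotated start, in RefSeq's GRCm38.p6, read on the gene's own strand. Cenpa (ENSMUSG00000029177, chr5:30666636-30666935, plus strand) and Ube2c (ENSMUSG00000001403, chr2:164769679-164769978, plus strand) are mitotic members. Pcna (ENSMUSG00000027342, chr2:132253131-132253430, minus strand) and Mcm6 (ENSMUSG00000026355, chr1:128359656-128359955, minus strand) are replication members. Capitals mark 3 motifs searched on both strands: TTTGAA, the CHR element of mitotic genes, TTTCCCGC or TTTGGCGC, 2 forms of the E2F element, and CCAAT, the NF-Y element. In Ube2c, CCAATTGG holds 2 overlapping NF-Y matches, 1 on each strand.
Cenpa: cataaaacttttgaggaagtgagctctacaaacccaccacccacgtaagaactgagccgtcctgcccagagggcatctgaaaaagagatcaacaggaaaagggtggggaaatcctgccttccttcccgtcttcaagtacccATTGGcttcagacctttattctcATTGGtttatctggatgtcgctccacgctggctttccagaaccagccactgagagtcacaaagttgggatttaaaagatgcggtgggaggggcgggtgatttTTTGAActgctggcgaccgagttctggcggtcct
Ube2c: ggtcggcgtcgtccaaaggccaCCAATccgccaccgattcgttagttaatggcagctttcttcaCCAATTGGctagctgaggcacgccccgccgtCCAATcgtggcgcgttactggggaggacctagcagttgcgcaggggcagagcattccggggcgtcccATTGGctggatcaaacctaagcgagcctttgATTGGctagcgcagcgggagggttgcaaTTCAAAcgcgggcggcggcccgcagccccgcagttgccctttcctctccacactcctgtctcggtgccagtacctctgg
Pcna: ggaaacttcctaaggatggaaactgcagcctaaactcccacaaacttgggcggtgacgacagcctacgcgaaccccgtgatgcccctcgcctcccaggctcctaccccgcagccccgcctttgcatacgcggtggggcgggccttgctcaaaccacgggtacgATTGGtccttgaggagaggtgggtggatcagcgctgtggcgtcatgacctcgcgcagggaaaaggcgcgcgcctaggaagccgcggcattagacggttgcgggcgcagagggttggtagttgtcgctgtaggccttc
Mcm6: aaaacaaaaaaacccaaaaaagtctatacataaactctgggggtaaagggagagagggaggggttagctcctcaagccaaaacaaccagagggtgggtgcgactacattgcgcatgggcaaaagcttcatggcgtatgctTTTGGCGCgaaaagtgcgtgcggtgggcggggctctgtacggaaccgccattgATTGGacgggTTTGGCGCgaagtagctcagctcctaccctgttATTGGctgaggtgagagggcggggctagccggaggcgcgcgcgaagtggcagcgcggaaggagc

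Of the 40 members 32 matched a promoter in the table. TTTGAA stood in 17 of 22 promoters of mitotic members (77.3%, 21 genes) and in 1 of 13 promoters of replication members (7.69%, 11 genes), beside 17.9% of all 32851 promoters of the same length. The E2F forms stood in none of the 22 mitotic promoters and in 4 of the 13 replication promoters (30.8%), beside 1.57% of all promoters. CCAAT was common in both sets, with 20 of 22 mitotic promoters (90.9%) and 11 of 13 replication promoters (84.6%), beside 37.4% of all. The sets thus differed in CHR and E2F letters and shared NF-Y letters, and a match is a description of letters, not a proven site.

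After removal of barcodes with fewer than 300 genes or over 10% mitochondrial UMIs, 1071, 5941, 2828 and 4611 barcodes were kept at Baseline, Peak, Plateau and Resolution. They held 11957871, 58705149, 29588064 and 27096151 gene UMIs, with medians of 7752, 8250, 6782.5 and 4912 per barcode. Resolution was the shallowest, also in CD45 antibody UMIs, with medians of 21, 31, 32 and 8 per barcode, and 27 barcode sequences occurred in more than 1 library. Itgam, the gene of the sorted protein CD11b, had 308.2, 329.9, 246.9 and 302.2 CPM (counts scaled to 1000000 gene UMIs) in barcodes with fewer than 10 members. S100a8 and S100a9, granulocyte genes, made up at least 5% of UMIs in 55 barcodes at Baseline, 23 at Peak, 2 at Plateau and 7 at Resolution. Shares with 3 or more members, the phase balance of whole libraries and the stage contrasts with Baseline are given with and without them. Levels of single members, their spread over barcodes and the CD45 values of single genes include them unless stated. At Baseline Mki67 had 110.7 CPM with them and 64.4 without, and Rrm2 had 58.3 with them and 19.9 without.

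Member levels are CPM over all kept barcodes of a library. Of the helicase, Mcm6, a subunit of the ring, had 20.9 CPM at Baseline, 8.84 at Peak, 22.5 at Plateau and 30.6 at Resolution. Mcm4 had 23.8, 15.9, 15.8 and 13.5 CPM and Mcm3 had 23.3, 10.7, 13.2 and 16.6 CPM at the same stages. Mcm6 was the only one of these 3 with its highest level at Resolution, and its intervals at Baseline (18.4–23.67) and Plateau (20.9–24.3) overlapped. The other helicase genes, Mcm2, Mcm5, Mcm7 and Gins2, lay between 2.74 and 19.5 CPM.

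Among the genes of DNA synthesis, Pcna had 92.3 CPM at Baseline, 57.4 at Peak, 76.7 at Plateau and 88.0 at Resolution. Rrm2, the subunit of ribonucleotide reductase that cells make for S phase, had 58.3, 6.61, 12.2 and 15.4 CPM. Rrm1, its more steadily made partner, had 23.499, 11.3, 20.6 and 15.5 CPM. All 3 were lowest at Peak, but Baseline exceeded Peak far more for Rrm2 than for Pcna or Rrm1. Tyms and Tk1, which make thymidine nucleotides, and Uhrf1, which maintains DNA methylation, lay between 1.99 and 27.4 CPM.

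Among cyclins and kinases, Cdk1, the kinase of mitotic entry, had 38.8 CPM at Baseline, 8.81 at Peak, 18.6 at Plateau and 12.0 at Resolution. Its partners Ccnb2 and Ccna2 followed the same order of stages, with 33.5, 10.8, 19.1 and 13.1 CPM for Ccnb2 and 25.2, 5.43, 10.8 and 7.38 CPM for Ccna2. For each of these 3 genes the 4 intervals were separate, with Baseline highest, then Plateau, then Resolution, then Peak. Without the S100a8 and S100a9 barcodes Baseline was closer to Plateau, and no intervals were taken. Cdk1 then had 19.6 CPM at Baseline against 18.4 at Plateau, Ccnb2 23.3 against 19.0 and Ccna2 15.1 against 10.7. The other 7 genes of the group, among them the kinases Aurka, Aurkb and Plk1 and the spindle checkpoint genes Bub1 and Bub1b, lay between 1.86 and 22.3 CPM.

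Among genes of chromosomes and the spindle, Stmn1 had 212.9 CPM at Baseline, 40.3 at Peak, 90.8 at Plateau and 102.4 at Resolution. Cenpa, the histone variant that marks centromeres, had 92.2, 81.6, 87.4 and 35.0 CPM. Mki67, the widely used marker of cycling cells, had 110.7, 15.8, 25.8 and 33.6 CPM. All 3 were lower at Peak than at Baseline with separate intervals, Cenpa by the least (79.3–83.9 at Peak against 86.8–97.8 at Baseline). Without the S100a8 and S100a9 barcodes Cenpa was not lower at Peak, with 81.2 CPM against 79.5 at Baseline. The other 11 genes, such as the topoisomerase Top2a and the survivin gene Birc5, ranged between 2.28 and 99.0 CPM.

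Of the genes of exit from mitosis, Ube2c, the ubiquitin carrier of the anaphase-promoting complex, had 108.2 CPM at Baseline, 22.8 at Peak, 48.8 at Plateau and 25.7 at Resolution. Cdca3, a trigger of mitotic entry, had 43.7, 12.3, 22.5 and 11.7 CPM, and Cdc20, the activator of that complex, had 16.1, 5.64, 9.57 and 4.13 CPM. All 3 were highest at Baseline and second at Plateau. Of the 40 members 13 overlap another RefSeq gene, and the labels do not say whether counting used the strand.

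**Figure D1:**
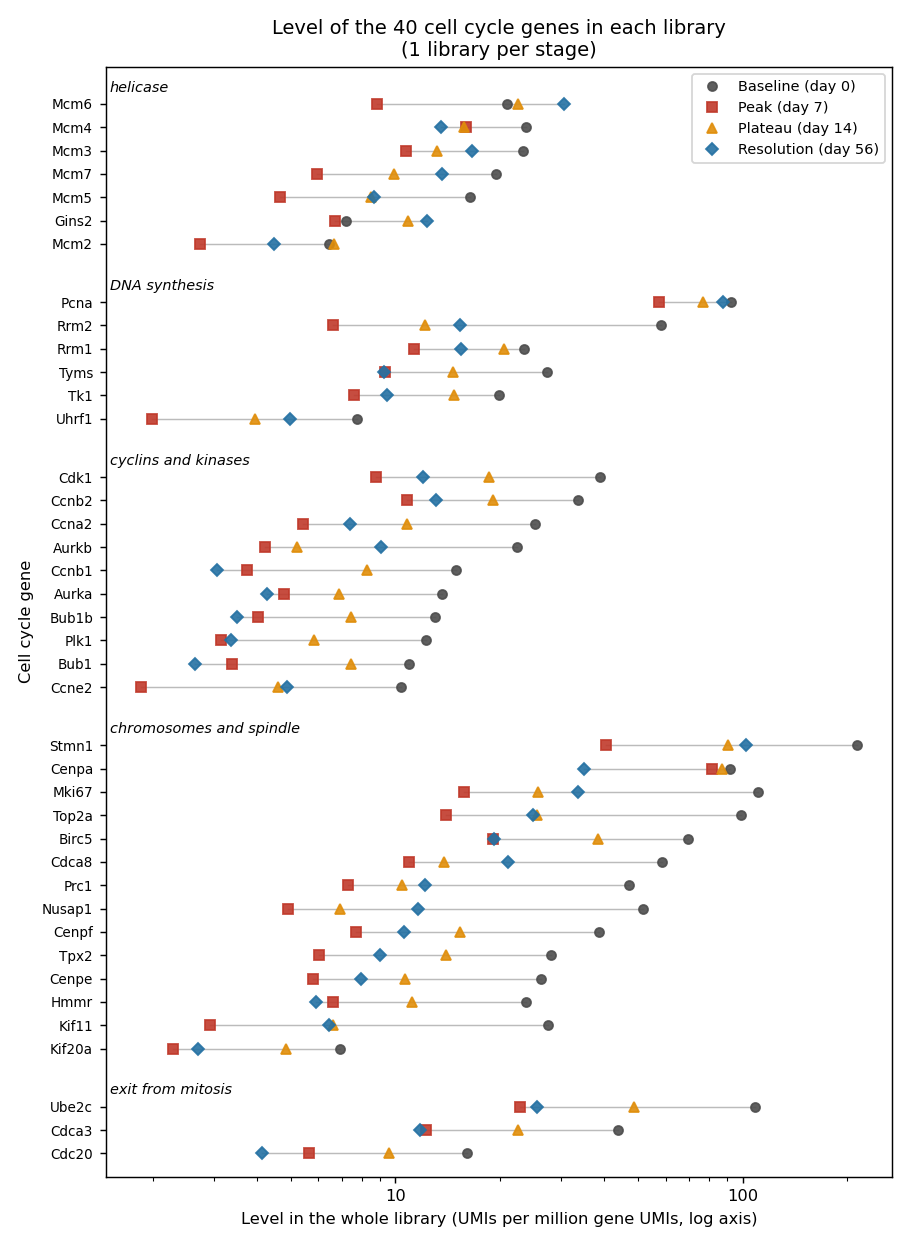
Level of each cell cycle gene (CPM, log axis) in the 4 libraries, grouped by role, with a symbol for each library. Baseline lies to the right for most genes, while Pcna, Cenpa, Mcm4 and Gins2 have Peak and Baseline within a factor of 2 of each other.

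Stage contrasts were taken as log2 ratios of CPM with 0.5 counts added, counting a gene with at least 30 UMIs as past the fold at 2-fold. At Peak against Baseline 36 of the 40 members were at least 2-fold lower and none was 2-fold higher, where 12.6% of all 13084 genes were that much lower and 8.52% that much higher. The median log2 ratio was -1.86 over the members, -2.14 over the mitotic set and -1.32 over the replication set, beside -0.13 over all genes. The members that did not reach 2-fold were Pcna (-0.69), Mcm4 (-0.58), Cenpa (-0.18, but 0.02 with TMM totals) and Gins2 (-0.11). TMM totals moved the median of all genes to 0.07, and 1 member, Gins2, lay above that median under either scaling. Without the barcodes with S100a8 and S100a9 of at least 5% of UMIs, an alternative chosen after seeing the data, 30 members were at least 2-fold lower and the median was -1.31.

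At Plateau against Peak 12 members were at least 2-fold higher and none lower, where 15.1% of all 13501 genes were that much higher and 5.07% that much lower. The members' median was 0.88, beside 0.30 over all genes, and 39 of 40 ratios were above 0, Mcm4 being the exception, while 37 lay above the median of all genes both as scaled here and with TMM totals, which moved it to 0.05. The largest ratios were those of Mcm6 (1.35), Ccne2 (1.31), a cyclin of S phase entry, and Mcm2 (1.28). The count depended on the scale: with TMM totals 3 members were past the fold, and without barcodes with Acp5 and Ctsk of at least 2% of UMIs it was 30. This contrast and the one before share the Peak library.

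At Resolution against Plateau 5 members were at least 2-fold lower and none higher, where 10.5% of all 13291 genes were that much lower and 13.4% that much higher. As a share of the 40 members, 5 is close to the 10.5% of all genes, so the count does not set the members apart. The 5 were all mitotic: Bub1 (-1.48), Ccnb1 (-1.43), Cenpa (-1.32), Cdc20 (-1.21) and Bub1b (-1.09). The median was -0.63 over the mitotic set and 0.14 over the replication set, beside 0.06 over all genes. With TMM totals 9 members were at least 2-fold lower, and without the Acp5 and Ctsk barcodes 13 were.

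At Resolution against Baseline 30 members were at least 2-fold lower, 25 of them mitotic, where 5.61% of all 12658 genes were that much lower. The members' median was -1.66, beside 0.18 over all genes. Mcm6 (0.55) and Gins2 (0.78), a helicase partner, were the members with ratios above 0. Without the S100a8 and S100a9 barcodes 18 members were at least 2-fold lower and the median was -0.91. These ratios share the Baseline library with those of Peak against Baseline.

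The share of barcodes with 3 or more of the 40 members was 25.1% at Baseline (269 of 1071, interval 22.5–27.8), 18.8% at Peak (1115 of 5941, 17.8–19.8), 29.5% at Plateau (834 of 2828, 27.8–31.2) and 14.8% at Resolution (681 of 4611, 13.8–15.8). The libraries differ in depth, so each barcode was also thinned to 2000 UMIs, which left out 83, 444, 422 and 572 shallower barcodes. The thinned shares were 11.03% (9.15–13.2), 2.35% (1.96–2.78), 6.53% (5.57–7.59) and 4.61% (3.98–5.30). Baseline was the highest and Peak the lowest of the 4 after thinning, whereas Plateau was the highest and Resolution the lowest before it. Without the S100a8 and S100a9 barcodes the thinned share at Baseline was 6.65%, close to Plateau's 6.49%.

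RNA set free from broken cells can put single UMIs into cells that do not cycle, so the same share was read in barcodes with the genes of nonclassical monocytes, blood cells that do not divide. A gate of at least 3 UMIs in 6 such genes, Ace, Treml4, Cd300e, Pglyrp1, Adgre4 and Eno3, held 83 barcodes with 10 or more members among its 501 at Baseline, so it did not leave out cycling cells. A narrower gate on Ace, Treml4, Cd300e and Adgre4 with S100a8 and S100a9 under 1% of UMIs was chosen after seeing this. In its 329, 223, 62 and 526 barcodes, with median depths of 6586, 11140, 9128 and 3546 UMIs, the share with 3 or more members was 21.6%, 31.8%, 38.7% and 5.89%. Thinned to 2000 UMIs these shares were 4.66%, 2.26%, 4.92% and 1.75%. At Peak the thinned share of the whole library was close to that of these monocytes, so the count of 3 does not set the library apart from them there. Of the 129 thinned barcodes with 3 or more members at Peak, 39 had 10 or more, against 0 of these monocytes. With 2.26% of at most 223 barcodes, few monocytes had 3 or more, so this 0 cannot set the library apart from them. The gate still held 20 barcodes with 10 or more members at Baseline, 1 at Peak, 1 at Plateau and 3 at Resolution before thinning, and the part of free RNA was not tested. At Baseline and Resolution the whole library's intervals lay above the monocytes' shares. At Plateau the monocytes' interval (1.03–13.7) held the whole library's share.

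A stricter mark, 10 or more members in a barcode, was added after seeing the data, and those just below it, with 9 members, numbered 4, 10, 18 and 10. It was met by 114 barcodes at Baseline (10.6%, 8.86–12.7), 115 at Peak (1.94%, 1.60–2.32), 136 at Plateau (4.81%, 4.05–5.66) and 118 at Resolution (2.56%, 2.12–3.06). In the narrower monocyte gate it was met by 6.08%, 0.448%, 1.61% and 0.570% of barcodes. Barcodes with 10 or more members are called member-rich in what follows. They were deep, with median UMIs of 26840 against 7178 for all other barcodes at Baseline, 29000 against 8193 at Peak, 24830 against 6575 at Plateau and 12490 against 4824 at Resolution. Depth moves with the count of members, and its part in these shares was not tested beyond the thinning.

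**Figure D2:**
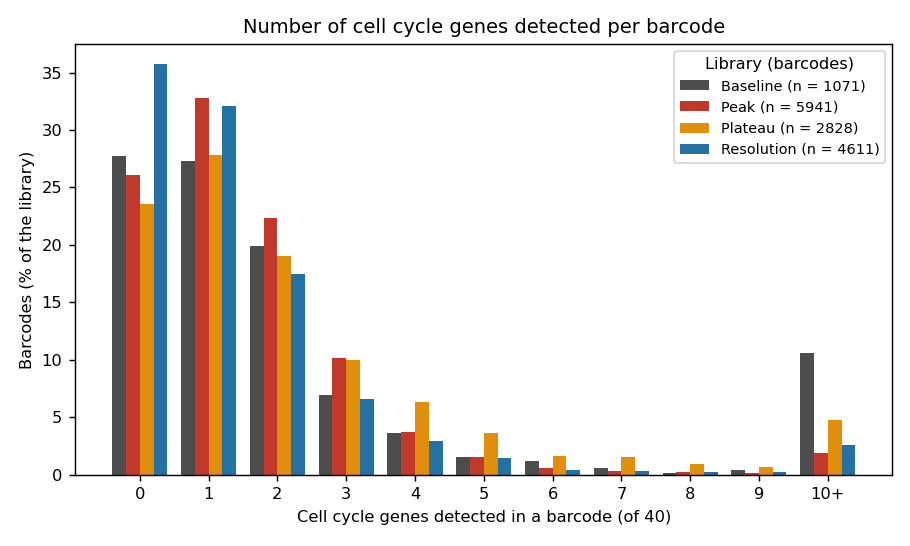
Share of barcodes (%) by the number of cell cycle genes detected in them, in each library. Barcodes with no member were 27.7%, 26.1%, 23.6% and 35.7% of the libraries in the order of time, and most of the rest had 1 or 2 members.

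The member-rich barcodes held most UMIs of the mitotic genes and a smaller part of those of the replication genes. To keep a gene from choosing its own barcodes, the share of its UMIs was taken in barcodes with 10 or more of the other 39 members. The median over the 25 mitotic members was 97.9% at Baseline, 88.4% at Peak, 89.6% at Plateau and 88.7% at Resolution. Over the 14 replication members it was 82.3%, 49.6%, 53.7% and 43.4%. The sets kept this order in all 4 libraries: 24, 20, 21 and 17 of 25 mitotic members lay over 80%, but 8, 2, 3 and 2 of 14 replication members did. With 25 mitotic and 14 replication members in the list, the mark is met more easily through mitotic genes. It thus favours this order by construction, and how much of the order comes from it was not tested.

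The members at the ends of that range differed widely. For Cenpa, 67.8% of its UMIs lay in those barcodes at Baseline, 19.0% at Peak, 36.5% at Plateau and 40.9% at Resolution, the lowest share of any mitotic member in each library. Pcna was lowest among all members in each library, with 43.0%, 12.8%, 20.2% and 17.0%. Ccna2 was near the other end, with 99.7%, 96.9%, 97.8% and 95.5%. Among replication members Rrm2 stood apart, with 98.7%, 89.4%, 89.2% and 91.8%, the highest of the replication set in each library.

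In barcodes with at most 2 of the other 39 members, Pcna was detected in 37.5%, 33.8%, 36.8% and 29.6%, and Cenpa in 18.6%, 36.1%, 27.7% and 8.78%. Mki67 was detected there in 2.47%, 2.14%, 1.25% and 3.33% and Ccna2 in 0 of 802 at Baseline (an upper limit of 0.374%), in 0.0621% at Peak, 0.15% at Plateau and 0.0763% at Resolution. Thus Pcna and Cenpa RNA was spread over barcodes with few other members, and Ccna2 RNA hardly at all.

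**Figure D3:**
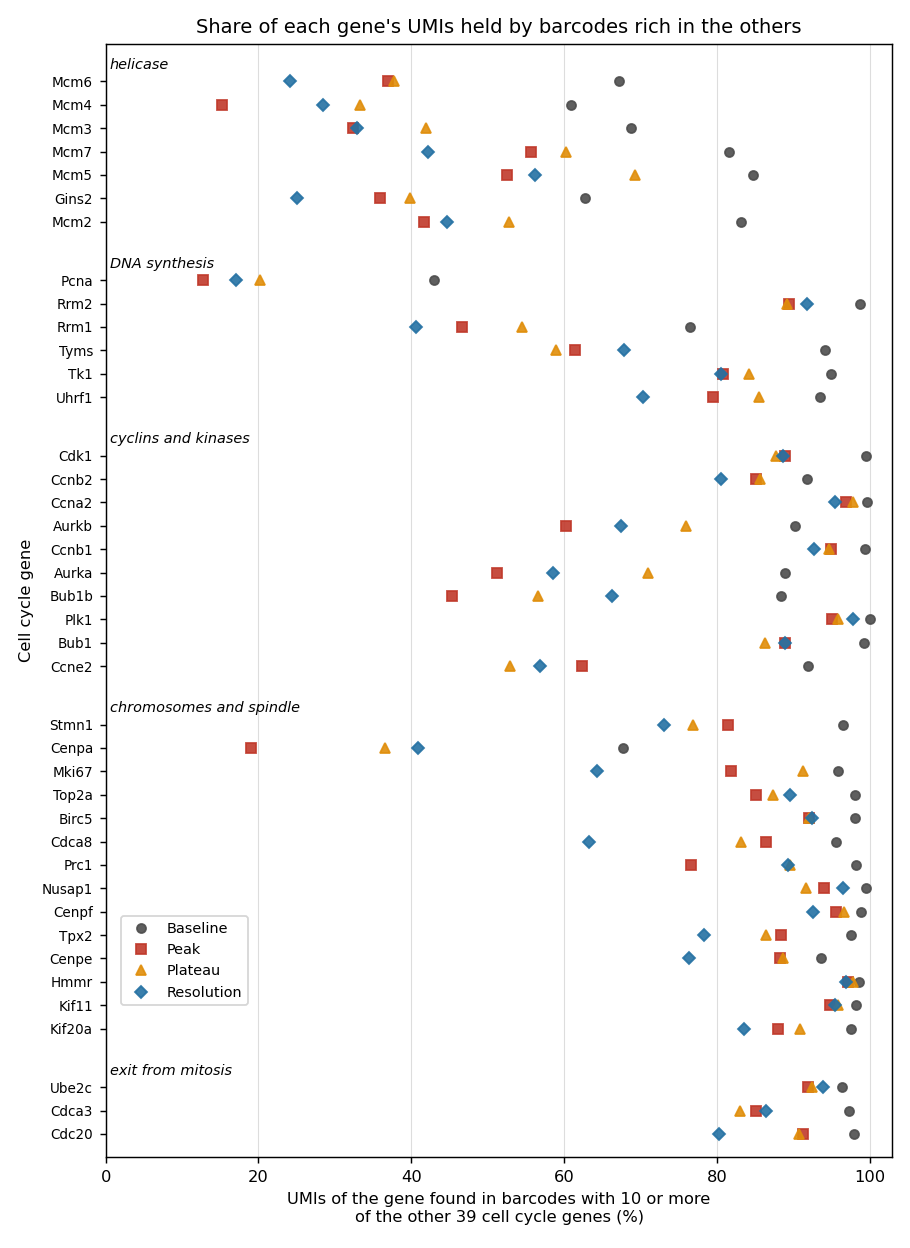
Percent of each gene's UMIs that lay in barcodes with 10 or more of the other 39 cell cycle genes, by role and library. Mitotic genes cluster at the right, helicase genes, Pcna and Cenpa lie further left, and Baseline is the furthest right for most genes.

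The member-rich barcodes carried different genes at different stages. At Baseline 47 of the 114 (41.2%, 32.1–50.8) had S100a8 and S100a9 at 5% of UMIs or more, against 8 of 957 other barcodes (0.836%), and they held 43.7% of the library's member UMIs. Their other leading genes were the granule genes Camp (62110 CPM), Ngp (47080 CPM) and Lcn2 (11210 CPM), which granulocyte precursors make while they still divide. Elane and Mpo, made earlier in that line, had 60.9 and 2.74 CPM there. The sort excluded Ly6G+ cells. Such barcodes numbered 7 among the member-rich of Peak, 1 among those of Plateau and 7 among those of Resolution. Those at Peak had 10300 CPM of Elane, and those at Resolution had 6617 CPM.

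At Peak 50 of 115 member-rich barcodes (43.5%, 34.3–53.0) and at Plateau 67 of 136 (49.3%, 40.6–58.0) had Acp5 and Ctsk at 0.5% of UMIs or more. These encode the acid phosphatase and the collagen-cutting protease of osteoclasts. Among all other barcodes 3.73% at Peak and 20.1% at Plateau met that mark. The class had 3043 CPM of Mmp9 at Peak and 2805 at Plateau, and Dcstamp, a fusion protein, had 180.5 and 182.8 CPM. In barcodes with fewer than 10 members Mmp9 had 505.0 CPM at Peak and 2888 at Plateau, and Dcstamp had 23.2 and 165.0. Both genes were thus higher in the class at Peak and close to the rest at Plateau. At Baseline 1 of 114 and at Resolution 4 of 118 member-rich barcodes met it.

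The member-rich barcodes that met neither mark numbered 66 at Baseline, 58 at Peak, 68 at Plateau and 107 at Resolution. In them Csf1r, the receptor for the macrophage growth factor, had 243.6, 151.5, 202.6 and 148.5 CPM, and Ly6c2, which marks classical monocytes and their precursors, had 803.3, 319.2, 75.3 and 301.1 CPM. Fibroblast genes made up at least 1% of UMIs in 0, 13, 23 and 1 of them, and Col1a1, a collagen of fibroblasts, had 2350 CPM at Peak and 1668 at Plateau. Elane, Mpo and Prtn3, genes of myeloid precursors, made up at least 0.1% of UMIs in 5, 0, 0 and 2.

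Markers of the cell types in the sort differed between member-rich and other barcodes. The summed level of 12 genes of resident macrophages, such as C1qa, Vsig4 and Timd4, was 468.3 CPM in member-rich against 4926 in other barcodes at Baseline, with all 12 lower. It was 1988 against 7934 CPM at Resolution, again with all 12 lower, 765.7 against 1448 at Plateau, and 665.7 against 664.8 at Peak. Genes of myeloid precursors, such as Mpo, Elane and Kit (8 in all), summed to 1151 against 76.4 CPM at Baseline, 1168 against 52.2 at Peak, 34.6 against 30.3 at Plateau and 1641 against 53.9 at Resolution. At Peak and Resolution much of that sum lay in the 7 member-rich barcodes of each library with high S100a8 and S100a9, where Elane, a granule protease, had 10300 and 6617 CPM. In the member-rich barcodes that met neither mark Elane had 513.8 CPM at Baseline, 6.74 at Peak, 0 at Plateau and 140.8 at Resolution. Fibroblast genes summed to 196.6 against 2115 CPM, 6072 against 2803, 4668 against 5327 and 281.2 against 2506 in the order of time, and the part of barcodes with fibroblast genes in the member counts was not tested.

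Other cell cycle genes were high in the same barcodes. Of 34 other mitotic genes 33 were higher in member-rich than in other barcodes in each library, and all 31 other replication genes were. Their sums were 2231 against 275.8 CPM at Baseline for the mitotic list, 1729 against 157.1 at Peak, 1653 against 183.0 at Plateau and 2502 against 264.8 at Resolution. Chromatin and tubulin genes of dividing cells were higher for 16, 15, 15 and 16 of 16 genes. Genes that brake the cycle, such as Cdkn1a and Btg2, summed to less in member-rich barcodes, with 2312 against 2917 CPM at Baseline, 1078 against 2820 at Peak, 837.7 against 1795 at Plateau and 1454 against 2281 at Resolution, although 7, 7, 6 and 7 of the 18 were higher.

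Over all other genes, those with the highest smallest ratio over the 4 libraries between barcodes with 3 or more members and the rest were Kif14, Pbk, Kif18b, Hist1h3c, Aspm, Pclaf, Ngp, Cdkn3, Nuf2 and Camp. Kif14 is a mitotic kinesin and Pbk a mitotic kinase. Pclaf, a partner of Pcna, had 221.3 CPM against 0.514 in the rest at Baseline, 51.7 against 0.884 at Peak, 43.2 against 1.39 at Plateau and 105.2 against 0.803 at Resolution. Ngp and Camp are granule genes and not cell cycle genes. With 10 or more members as the mark the 10 were Pbk, Nek2, Kif14, Kif18b, Pclaf, Pimreg, Aspm, Depdc1a, Aunip and Sapcd2, with no granule gene among them.

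On the cell surface, the antibody with the highest mean log2 ratio in member-rich barcodes among 59 antibodies was CD71, the transferrin receptor that brings iron into growing cells. It made up 0.196% of antibody UMIs in member-rich against 0.0704% in other barcodes at Baseline, 6.09% against 0.528% at Peak, 6.05% against 1.55% at Plateau and 0.521% against 0.266% at Resolution. The mean log2 ratio was 1.99 ± 1.10 (SD, n = 4 libraries), higher in 4 of 4, where the smallest p of an exact 2-sided sign-flip permutation test is 1 in 8. At Peak and Plateau member-rich barcodes more often had high Acp5 and Ctsk than other barcodes did. Tfrc, the gene of CD71, was itself high in barcodes with high Acp5 and Ctsk. The part of this in the CD71 ratio was not tested. CD106, an adhesion protein (1.55), CD43, a sialoprotein of leukocytes (0.46), Ly108 (0.44) and CD317 (0.35) were also higher in 4 of 4 libraries. Lower in 4 of 4 were FceRIa, the IgE receptor of basophils and mast cells (-2.11), and Tim4, a protein of resident macrophages (-1.33). So were CD14, the endotoxin co-receptor (-1.24), VISTA (-1.225), CD88 (-1.055), CD163, a scavenger receptor (-0.95), and others with smaller ratios. The tags that carried the CD45 calls and the CD71 reading are shown because those results rest on them.
CD45.1: cctatggacttggac
CD45.2: caccgtcattcaacc
CD71: accgaccagtagaca

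The balance of phases was taken as the mitotic share of all mitotic and replication UMIs. It was 74.3% at Baseline, 64.4% at Peak, 65.3% at Plateau and 54.8% at Resolution. Baseline leaned most to mitosis and Resolution least. Cenpa alone, which was widespread outside member-rich barcodes, carried much of the mitotic side at Peak: without it the shares were 72.5%, 55.9%, 60.1% and 51.8%. Pcna, more widespread still, stayed in on the replication side, so leaving out Cenpa alone moves the balance 1 way only. It held 3370 of 8902 replication UMIs at Peak and 2384 of 6700 at Resolution, and the balance without both was not taken. Without the S100a8 and S100a9 barcodes Baseline had 72.6%.

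Within member-rich barcodes the balance was closer between libraries, at 78.7%, 77.8%, 76.7% and 72.4%. The mark of 10 members favours mitotic UMIs by construction. Its part in this balance and in the counts of member-rich barcodes was not tested. Counted by barcode, mitotic UMIs led in 92 of 114, 89 of 115, 99 of 136 and 85 of 118 member-rich barcodes (80.7%, 77.4%, 72.8% and 72.0%). Among all barcodes with 3 or more members they led in 136 of 269, 413 of 1115, 286 of 834 and 180 of 681 (50.6%, 37.0%, 34.3% and 26.4%). In that wider set 28, 124, 108 and 175 barcodes had no mitotic UMI at all. Their share of that set was highest at Resolution, at 25.7%, against 10.4% at Baseline, 11.1% at Peak and 12.95% at Plateau. Resolution was also the shallowest library, this share was not taken after thinning, and the part of depth in it was not tested.

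Barcodes were called CD45.1 or CD45.2 where the log2 ratio of the 2 antibodies' UMIs, each plus 1, was at least 1 or at most -1. This gave 808 CD45.1 and 190 CD45.2 barcodes at Baseline, 5576 and 219 at Peak, 2402 and 239 at Plateau, and 3249 and 730 at Resolution, while 73, 146, 187 and 632 lay between. Barcodes with 10 or more UMIs of both antibodies, possible doublets, numbered 46, 127, 46 and 22, of which 17, 8, 5 and 1 were member-rich.

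The share with 3 or more members was 27.0% in CD45.1 (23.95–30.2) against 18.9% in CD45.2 barcodes (13.6–25.3) at Baseline. At Peak it was 17.4% in CD45.1 (16.4–18.5) against 40.6% in CD45.2 (34.1–47.5), and at Plateau 28.9% (27.0–30.7) against 38.9% (32.7–45.4). At Resolution it was 15.8% in CD45.1 and 15.8% in CD45.2 barcodes. The intervals did not overlap at Peak and Plateau, where CD45.2 was higher. They overlapped at Baseline, where CD45.1 was higher, and at Resolution. With 2 or more members as the mark CD45.1 was 0.648 points lower at Baseline. Thinned to 2000 UMIs the shares were 12.0% against 5.11% at Baseline, 1.74% against 14.5% at Peak, 5.61% against 13.1% at Plateau and 4.75% against 4.47% at Resolution. Those thinned intervals were separate at Baseline (9.79–14.5 against 2.37–9.49). With 10 or more members as the mark the Baseline shares were 11.9% in CD45.1 (9.73–14.3) against 4.74% in CD45.2 (2.19–8.80). Without the S100a8 and S100a9 barcodes they were 7.83% against 2.69%, the thinned shares with 3 or more were 7.74% against 2.91%, and the unthinned ones 23.6% against 17.2%, each with overlapping intervals. The thinned share of the monocyte gate at Peak was 2.26%, above that of CD45.1 and below that of CD45.2 barcodes.

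Taking the 4 libraries as pairs, CD45.1 averaged 22.3% and CD45.2 28.6%, a difference of -6.30 ± 13.5 points (SD, n = 4 libraries), higher in CD45.1 in 2 of 4. The exact 2-sided sign-flip permutation test gave p = 0.5, and 4 libraries cannot give less than 1 in 8. Replication members alone differed by -7.46 ± 11.8 points and mitotic members alone by -4.67 ± 12.99 points for 3 or more detected, with exact permutation p = 0.375 and p = 0.5 (adjusted p = 0.5 for both over 8 such differences). By the stricter mark of 10 or more members, 11.9% of CD45.1 against 4.74% of CD45.2 barcodes were member-rich at Baseline, 1.31% against 14.6% at Peak, 3.91% against 12.6% at Plateau and 2.65% against 2.47% at Resolution.

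**Figure D4:**
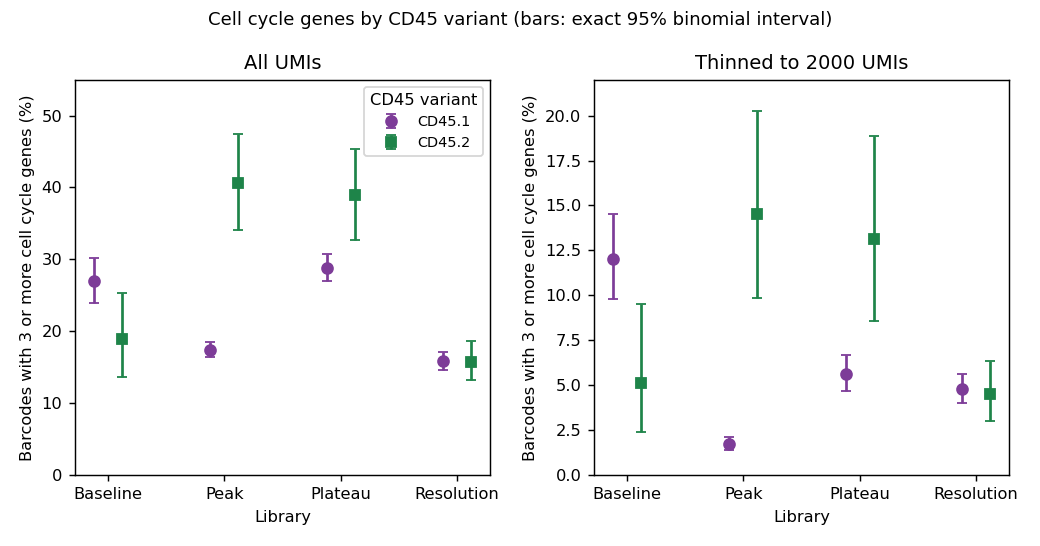
Percent of barcodes with 3 or more cell cycle genes in CD45.1 (left of each pair) and CD45.2 barcodes (right), as counted and after thinning to 2000 UMIs, with 95% intervals of counting error. CD45.2 lies higher at Peak and Plateau, CD45.1 lies higher at Baseline, and the 2 coincide at Resolution.

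The shares were also read by the load of osteoclast genes. Among barcodes with Acp5 and Ctsk under 0.5% of UMIs the share with 3 or more members was 15.7% in CD45.1 (14.7–16.7) against 25% in CD45.2 (18.4–32.5) at Peak, and 21.0% (19.3–22.9) against 30.2% (22.96–38.2) at Plateau. CD45.2 was higher at both stages there too, by a smaller margin at Peak. Among barcodes with at least 2% the shares were 69.9% of 133 CD45.1 against 81.6% of 38 CD45.2 barcodes at Peak, and 68.6% of 322 against 55.7% of 61 at Plateau, with overlapping intervals at both stages. At the lower load the median log2 ratio of CD45.1 over CD45.2 was -1.88 over the members at Peak and -1.45 at Plateau, with 2 of 40 members higher in CD45.1 at each.

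Gene by gene, 34 of 40 members had the higher CPM in CD45.1 barcodes at Baseline, 0 at Peak, 1 at Plateau (Cenpa) and 29 at Resolution. The median log2 ratio of CD45.1 over CD45.2 was 0.72, -2.36, -1.09 and 0.18 over the members, beside -0.24, -0.34, -0.13 and -0.13 over all genes. Mki67 had 119.6 CPM in CD45.1 against 60.3 in CD45.2 at Baseline, 12.0 against 60.5 at Peak, 21.9 against 44.7 at Plateau and 34.1 against 32.4 at Resolution. Its level in CD45.2 barcodes was close at Baseline and Peak, while that in CD45.1 barcodes differed about 10-fold. All values here include the S100a8 and S100a9 barcodes, whose part in them was not tested. Cdk1 had 40.1 against 25.2 CPM at Baseline, 5.60 against 36.3 at Peak, 14.1 against 45.5 at Plateau and 10.4 against 17.5 at Resolution, so it was higher in CD45.2 in 3 of 4 libraries. Cenpa had 100.7 against 53.7 CPM, 81.1 against 99.2, 90.0 against 80.6 and 36.7 against 26.3.

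A test across all genes took CD45.1 and CD45.2 sums of each library as pairs, with the library as a block (edgeR's quasi-likelihood test with Benjamini-Hochberg adjustment, n = 4 libraries). Of all 11498 genes 9.75% were called higher and 9.6% lower in CD45.1, 19.4% in all, but 0 of the 40 members were called in either direction. By unadjusted p under 0.05 edgeR marked 1 member, Cenpa (log2 0.52 ± 0.21 SE, adjusted p = 0.13). DESeq2 also marked 1 at that level, Cenpa (adjusted p = 0.116), and called 0. In the fit 35 of 40 members had negative log2 ratios, with a median of -0.42 beside -0.02 over all genes. Leaving out Baseline gave 37 negative ratios, a median of -0.88 and 1 call, Cdk1 (log2 -1.53 ± 0.34 SE, adjusted p = 0.0418). Leaving out Peak gave 13 negative ratios and a median of 0.15, so the direction over the members rests on the Peak library.

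Some regulators of the cycle were called in the same test, where 9.75% of all genes were higher and 9.6% lower in CD45.1. Adjusted p-values over all genes (edgeR) lay between 0.00620 and 0.0473 for the regulators called. Of 10 genes of G1, Ccnd3, a D-type cyclin (log2 1.21), and E2f2, a transcription factor of S phase genes (2.17), were higher in CD45.1 barcodes, and Cdk6, a partner of D cyclins (-0.73), and Myc, a growth factor-induced transcription factor (-0.85), were lower. Of 18 brakes 6 were higher in CD45.1: the kinase inhibitors Cdkn1b (1.30) and Cdkn2d (1.197), Rb1, which holds back E2F factors (0.67), the antiproliferative genes Btg1 (1.75) and Btg2 (1.41), and Ccng2, a cyclin of resting cells (0.61). The 3 lower in CD45.1 were the kinase inhibitors Cdkn2a (-4.43), Cdkn2b (-3.04) and Cdkn2c (-0.72). Inhibitors of the cyclin D kinases thus differed in both directions, Cdkn2d being higher and the other 3 of that family lower in CD45.1.

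Of 16 chromatin and tubulin genes Lmnb1, a lamin, was higher in CD45.1 (1.72) and Cbx5, a heterochromatin protein, lower (-0.95). As a share of the 16 this did not exceed the 19.4% of all genes called, so the count does not set this list apart. Of 34 other mitotic and 29 tested other replication genes none passed, with 2 and 3 of them at an unadjusted p under 0.05 by edgeR. The lowest unadjusted p-values among them were those of Ckap2, a spindle protein (log2 -1.25, adjusted p = 0.117), Mybl2, a transcription factor (-1.42, adjusted p = 0.127) and the kinase Pbk (-0.91, adjusted p = 0.138) in the mitotic list, and Rfc3, a clamp loader subunit (-0.77, adjusted p = 0.0840), Slbp, which binds histone mRNA (0.47, adjusted p = 0.114) and Rfc2, another clamp loader subunit (0.53, adjusted p = 0.1253), in the replication list, all by edgeR. The variants also differed in cell type markers, beside the 9.75% of all genes called higher and 9.6% called lower. Of resident macrophage genes 9 of 12 were lower in CD45.1, and 7 of 9 genes of classical and 7 of 8 of nonclassical monocytes were higher. Fibroblast genes were lower in CD45.1 for 6 of 8, and basophil and mast cell genes for 4 of 5 tested. The part of this difference in the regulators was not tested.

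No barcode of 1071 reached 2% of UMIs from Acp5 and Ctsk at Baseline (an upper limit of 0.280%), and 178, 443 and 21 did at Peak, Plateau and Resolution. Of these 126 of 178 had 3 or more members at Peak (70.8%, 63.5–77.4), 257 of 443 at Plateau (58.0%, 53.3–62.7) and 11 of 21 at Resolution (52.4%, 29.8–74.3). In barcodes under 2% the shares were 17.2%, 24.2% and 14.6%. The loaded barcodes were deep, with median UMIs of 29200, 24440 and 15820 against 8169, 6452 and 4892 under 2%. Thinned to 2000 UMIs, 7.74% (4.18–12.9), 7.03% (4.51–10.4) and 19.1% (5.45–41.9) of loaded barcodes had 3 or more members, against 2.18%, 6.45% and 4.53% under 2%. After thinning the loaded barcodes at Peak and Resolution had intervals above the share under 2%, while at Plateau the 2 shares were close.

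Barcodes with an intermediate load were richer in members than those with the highest. Split at 0.1%, 0.5%, 1% and 2%, the thinned shares at Peak were 1.60%, 8.40%, 10 of 25 barcodes, 26.4% and 7.74% in the order of rising load. At Plateau they were 3.88%, 13.4%, 13 of 28 barcodes (46.4%), 27.8% and 7.03%. Both libraries thus had their highest share between 0.5% and 1%, where the bins hold 31 and 35 barcodes before thinning, and the intervals there (21.1–61.3 and 27.5–66.1) lay above those of the highest load but overlapped those of 1% to 2%.

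Summed member levels had the same shape, with 379.8, 870.3, 2143, 1648 and 700.0 CPM over the 5 bins at Peak and 595.5, 1327, 4053, 2064 and 433.7 CPM at Plateau. Ube2c had 29.5, 96.5, 435.5, 168.2 and 19.2 CPM at Plateau, and Mcm3 had 12.7, 26.6, 44.2, 35.6 and 4.65 CPM. At Peak Ube2c had 14.0, 41.9, 122.6, 130.4 and 63.2 CPM, and Mcm3 had 10.5, 20.1, 47.0, 20.1 and 4.50 CPM. At the highest load Mcm3 was below its level in barcodes with a load under 0.1% in both libraries, and Ube2c was below it at Plateau but not at Peak. Not all replication members were: Mcm6 had 19.9 CPM at the highest load against 6.68 under 0.1% at Peak and 19.65 against 14.8 at Plateau. Rrm1, a subunit of ribonucleotide reductase, had 17.6 against 8.88 CPM at Peak and 16.75 against 13.4 at Plateau. The replication set summed to 171.6 CPM at the highest load against 136.5 under 0.1% at Peak, and to 155.6 against 191.9 at Plateau. CPM are shares of a total, so high osteoclast gene levels lower all other CPM. The size of that effect was not tested.

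**Figure D5:**
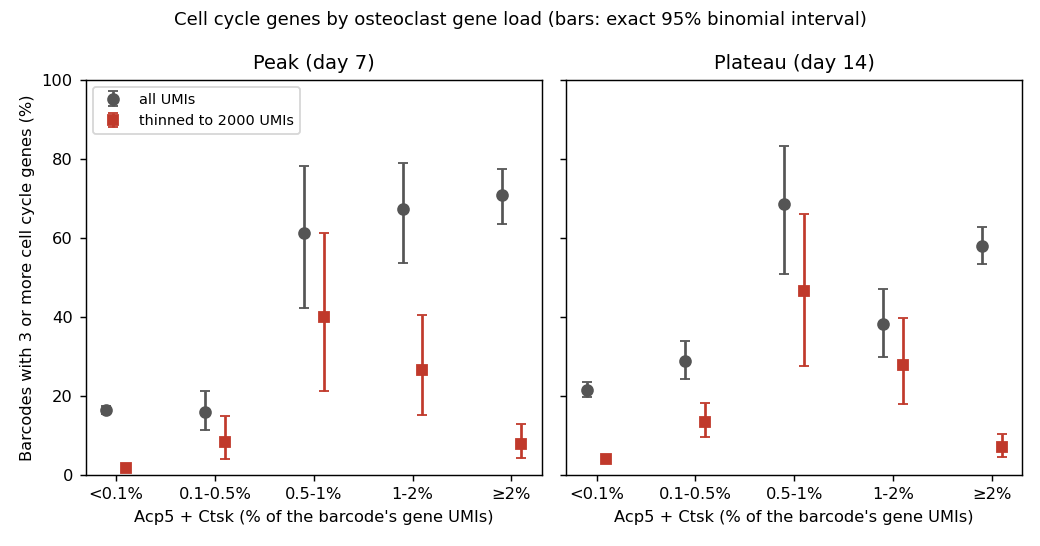
Percent of barcodes with 3 or more cell cycle genes by the share of UMIs from Acp5 and Ctsk at Peak and Plateau, as counted (circles) and after thinning to 2000 UMIs (squares), with exact 95% intervals. The thinned share is highest at 0.5% to 1% in both libraries and 7.74% and 7.03% at 2% or more.

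Regulators moved along the same bins. Cdkn1a, the p21 inhibitor, had 588.8, 403.3, 159.4, 172.0 and 89.0 CPM at Peak and 531.0, 226.2, 175.2, 47.6 and 82.7 CPM at Plateau. Ccnd1, a D-type cyclin, had 34.6, 32.5, 30.7, 7.71 and 0.7495 CPM at Peak and 29.2, 33.5, 44.2, 7.62 and 1.36 CPM at Plateau. Tfrc, the gene of CD71, had 5.31, 14.8, 85.8, 173.6 and 183.4 CPM at Peak and 8.12, 23.73, 57.3, 196.8 and 194.7 CPM at Plateau. Cdkn2c, the p18 inhibitor, had 10.98, 20.7, 12.3, 16.97 and 22.9 CPM at Peak and 15.96, 57.9, 49.1, 20.95 and 32.9 CPM at Plateau. Cdkn1a was lower, and Cdkn2c higher, at the highest load than under 0.1% in both libraries. Ccnd1 was low at 1% and above, whereas Tfrc was high there.

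The phase balance of loaded barcodes was 73.4% mitotic at Peak, 60.0% at Plateau and 71.8% at Resolution, against 62.9%, 66.6% and 54.3% under 2%. Mitotic UMIs led in 41 of 126 loaded barcodes with 3 or more members at Peak (32.5%), 72 of 257 at Plateau (28.0%) and 4 of 11 at Resolution (36.4%). Under 2% mitotic UMIs led in 372 of 989 at Peak (37.6%), 214 of 577 at Plateau (37.1%) and 176 of 670 at Resolution (26.3%). Most barcodes with 3 or more members were thus led by replication genes or had equal counts, both loaded and under 2%. Loaded barcodes with 10 or more members numbered 22, 29 and 4, and mitotic UMIs led in 21, 22 and 4 of them. That mark favours mitotic UMIs by construction.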

How the data were processed

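The authors deposited raw UMI counts for 32285 genes and 92 antibodies. They were made with Cell Ranger 6.1.2 per the file headers, on mm10 per the submitters' processing notes. The notes also list Seurat 4.4.0, for an unstated step. A table of antibody tags was read for its sequences.

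A barcode was kept if it had 300 genes or more and no more than 10% mitochondrial UMIs. The number of mice behind each library is unknown, so p-values measure the spread between libraries only. Levels are counts summed over barcodes and scaled to CPM. No doublet caller was run, and an alternative left out those in which each CD45 antibody had 10 UMIs or more. Shares have exact Clopper-Pearson and levels exact Poisson 95% intervals, for counting error only. Thinning drew 2000 UMIs from each barcode with a fixed seed. CD45.1 and CD45.2 sums of each library were tested with edgeR 4.0.16 (quasi-likelihood, TMM, filterByExpr, library as a block, Benjamini-Hochberg threshold 0.05), with DESeq2 1.42.0 as an alternative, in R 4.3.3. The edgeR step was checked on simulated data. Other steps used Python 3.11 with numpy 2.4.6, scipy 1.17.1, pandas 2.3.3 and matplotlib 3.10.9. The 2 sums of a library come from the same mice and preparation, so the libraries pair them. In the test the 4 stages stand as replicates of the variant contrast.

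The members and lists were chosen with earlier results of these data known. Named members are the 3 with the highest mean CPM of each role. From pathway lists the genes past the CD45 test are named or, with none, the 3 with the lowest p. Genes beside the members are the 10 with the highest smallest log2 ratio over the libraries and at least 10 UMIs. Promoters shown are the 2 mitotic and 2 replication members with the most UMIs among allowed ones. The mark of 10 members, the S100a8 and S100a9 split, the narrower monocyte gate and phase balance without Cenpa were chosen after seeing the data.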

Additional observations from a re-analysis of the deposited data

Results flagged for a closer look

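The share of barcodes with 3 or more cell cycle genes differed in opposite directions between CD45.1 and CD45.2 barcodes at different stages. CD45.1 minus CD45.2 was 8.03 percentage points at Baseline, -23.2 at Peak and -10.1 at Plateau. With 2 or more members as the mark the Baseline difference was -0.648 points. The difference between stages was not tested, since each stage has 1 library.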

How the results depend on the processing

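The share of barcodes with enough members moved with every rule that changes how many UMIs or members count. In the order Baseline, Peak, Plateau and Resolution it was 45.0%, 41.1%, 48.6% and 32.2% with 2 or more members, 14.6%, 4.87%, 13.2% and 5.25% with 5 or more, and 10.6%, 1.94%, 4.81% and 2.56% with 10 or more. Thinned to 2000 UMIs it was 11.03%, 2.35%, 6.53% and 4.61%, and thinned to 4000 UMIs 16.7%, 4.57%, 10.3% and 9.48%. With at most 5% mitochondrial UMIs Plateau had 27.7%, and without S100a8 and S100a9 barcodes Baseline had 21.8%. At a load of at least 2%, Peak had 80.9% with 2 or more members, 39.3% with 5, 12.4% with 10, 7.74% thinned to 2000 and 12.1% thinned to 4000 UMIs. Plateau had 69.3%, 35.9%, 6.55%, 7.03% and 9.03% under the same rules, 66.7% with at least 500 genes, 51.96% with at most 5% mitochondrial UMIs and 71.9% at a load of 5%. Resolution had 81.0% with 2 or more members, 19.1% with 10 or more and thinned to 2000, 23.8% thinned to 4000 UMIs and 20.0% at a load of 5%. Thinning and the higher marks use fewer UMIs or ask for more members by construction. For the other moves the cause was not tested.

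The mitotic share without Cenpa, with Pcna kept in, was 72.5%, 55.9%, 60.1% and 51.8%. Baseline had 73.2% without barcodes with both CD45 antibodies and 72.6% without S100a8 and S100a9 barcodes, and Plateau had 66.3% with at most 5% mitochondrial UMIs. At Plateau against Peak, 3 members (TMM totals) and 30 (without the load of 2%) were at least 2-fold higher. At Resolution against Plateau 9 and 13 were at least 2-fold lower under the same settings, and at Resolution against Baseline 18 were without S100a8 and S100a9 barcodes.

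With no library block (no replicate block, so the pairing is ignored) 217 genes were higher and 251 lower in CD45.1, no member was called, and Mki67 turned to 0.15. With a CD45 log2 ratio of 2, 663 genes were lower. Leaving out 1 library gave 486 to 1079 genes higher, 378 to 846 lower, 0 to 1 members lower and a mean share difference of -11.1 to -0.664 points. The log2 ratio of Stmn1 ran between -0.77 without Baseline and 0.14 without Peak, that of Mki67 between -0.90 and 0.25, Ube2c between -0.94 and 0.45, Cdca3 between -0.99 and 0.17, Ccnb2 between -0.87 and 0.34, Ccna2 between -0.86 and 0.39, and Mcm3 between -0.36 and 0.13 under the same omissions. With 2 or more members the Baseline CD45 difference was -0.648 points. The cause of these changes was not tested. Of all alternative values of single items, 467 kept their side, 94 moved, 1 became stronger and 11 reversed; the reversed ones also hold Ccna2 at 0.02 and Mcm3 at 0.01 without Plateau. Antibody depth at Resolution limits the CD45 calls there.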
